A study of Mus musculus with 9 samples.

Results

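The 9 libraries of this series fell into 2 sets by the level of Car1, the gene of carbonic anhydrase 1, and the sets are compared here. The libraries were selected on measured Car1 alone, taken as its expected count over the library total, in CPM, the unit that scales counts to a common library size. A library was called Car1-high above 10 CPM and Car1-low below 1 CPM, which gave 3 high and 6 low of 9 libraries and left 0 between the limits. The lowest high library stood at 26.5 CPM and the highest low library at 0.417 CPM. The high set held EV mouse 5 and sgZrsr2 mice 3 and 5, and the low set held EV mice 1 to 4 and sgZrsr2 mice 1 and 2. Because a measured value formed the sets, every gene given between them is a description of these libraries and not a test of a condition, and Car1 itself supports nothing.

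Each library came from bone marrow of a C57BL/6J mouse with the Jak2V617F genotype that had been given tamoxifen, EV and sgZrsr2 mice alike. Jak2V617F is an activating mutation of the kinase Jak2 seen in myeloproliferative neoplasms. The 5 EV mice carried Jak2V617F alone; the 4 sgZrsr2 mice are given as Jak2V617F with sgZrsr2, and the series describes them as having lost Zrsr2, a splicing factor. The labels do not spell out EV or sg, and give no age, no day of sorting and no statement of what the tamoxifen induced. At the end of the experiment, cells with both GFP and mCherry were sorted by the LSK phenotype, which means no lineage markers but Sca1 and Kit on the surface.

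LSK cells hold the haematopoietic stem cells and the multipotent progenitors, and their progeny branch towards myeloid, lymphoid, and joint megakaryocyte and erythroid fates. On that last branch Gata1 and its partner Zfpm1 are shared, Klf1 drives red cell genes, and Vwf, Pf4 and the glycoprotein complex of platelets mark the megakaryocyte side. Some stem cells with long-term activity already transcribe Vwf and other megakaryocyte genes. In bulk libraries, fewer cells of a type and less RNA per cell cannot be told apart, so a level given below is a level of the whole sorted sample.

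The libraries held 23.2M to 45.6M counts (M for mega), and the 3 high ones 33.0M to 38.4M (means of 35.3M, SD 2.80M, n = 3, and 34.9M, SD 9.25M, n = 6; two-sided exact permutation p over 84 splits = 0.917). Within EV the high mouse 5 was the shallowest library (33.0M against 34.1M to 45.6M), and within sgZrsr2 the high mice 3 and 5 were the deeper ones (38.4M and 34.4M against 23.2M and 25.9M). Mitochondrial genes took 2.27% to 2.41% of the counts in the high set and 2.88% to 4.07% in the low set (exact permutation p = 0.0238, adjusted over 4 library measures 0.0476). The 50 most abundant genes took 11.2% ± 0.213 against 13% ± 0.524 (exact p = 0.0119, adjusted 0.0476). Abundant mitochondrial genes can be among those 50, so the 2 measures are not separate results. Leaving out 1 library leaves 28 or 56 splits, which raises the smallest p that can be reached; these 2 adjusted values then exceeded 0.05 in 7 of 9 runs. Genes with a count numbered 19069 ± 307 and 17901 ± 1129 (exact p = 0.107). Whether the measures that moved with the sets have a part in the gene differences was not tested. The sort genes were present in all 9 libraries: in CPM scaled as described next, Kit was at 525, 629 and 524 CPM in the high set and 248 to 439.9 CPM (median 392) in the low set, and Ly6a, which encodes Sca1, at 38.8, 26.6 and 25.1 CPM and 14.7 to 50.03 CPM (median 33.5). Kit did not overlap between the sets, and Ly6a did.

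From here, values of the high set are given in the order EV mouse 5, sgZrsr2 mouse 3, sgZrsr2 mouse 5, and those of the low set as lowest to highest with the median, in CPM scaled by TMM (a factor that evens out library composition). Differences are log2, high minus low, with the genotype label held in the model. Over 15342 genes tested, 170 were higher (1.11%) and 170 lower (1.11%) in the high set at an adjusted p under 0.05 in edgeR's quasi-likelihood test, together 2.22%. In 8.3% of all genes tested the 3 high libraries lay above all 6 low ones, and in 9.25% below. The median log2 difference over all genes tested was 0.03. Nothing is read from these counts, since the sets were formed on the same data. They also moved with the libraries: leaving out 1 library gave 39 to 372 higher and 9 to 396 lower, with a change of over 1.5 times in at least 1 direction without EV mouse 1, 3, 4 or 5 or any sgZrsr2 mouse. Vwf, Pf4, Klf1, Sdpr, Aqp1, Ermap, Zfpm1, Cxcl2, Nfkbia and 7SK passed under all 19 alternatives tried, Epor and Egr2 under 18, Gata1 and Fosb under 13, and Tnf and Id1 under 11.

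Besides Car1, the 4 genes Vwf, Pf4, Klf1 and Gata1 describe what the sets carry. They were named with earlier results of these data known, so they are no independent check. All positions are in GRCm38. The level of Car1 itself (ENSMUSG00000027556; chromosome 3, 14766216 to 14808368, minus strand) was 25.5, 39.2 and 35.6 CPM in the high set, while the low set spanned 0 to 0.428 CPM (median 0.126). It rested on 874 to 1617 expected counts per high library and 0 to 19 per low library. Vwf, the adhesive glycoprotein made by megakaryocytes and endothelium (ENSMUSG00000001930; chromosome 6, 125546774 to 125686679, plus strand), was at 53.4, 90.8 and 85.6 CPM against 4.66 to 11.4 CPM (median 7.28). EV mouse 5 was the lowest of the high set for Vwf and still stood above all 6 low libraries, and the log2 difference was 3.15 (SE 0.24). Pf4, a chemokine of platelet granules (ENSMUSG00000029373; chromosome 5, 90772435 to 90773381, plus strand), was at 22.1, 27.8 and 37.5 CPM against 0.975 to 3.41 CPM (median 1.8), a difference of 4.05 (SE 0.35). Klf1, the red cell transcription factor (ENSMUSG00000054191; chromosome 8, 84901928 to 84905295, plus strand), was at 8.85, 14.2 and 12.3 CPM against 0.665 to 1.73 CPM (median 1.18), a difference of 3.27 (SE 0.35). Gata1 (ENSMUSG00000031162; chromosome X, 7959260 to 7978071, minus strand) was at 24.2, 26.1 and 38.9 CPM against 2.32 to 9.72 CPM (median 7.6), a difference of 2.07 (SE 0.39). Gata1 was the least separated of these genes, and EV mouse 3 was its lowest library at 2.32 CPM. None of the 5 overlapped between the sets.

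**Figure D1:**
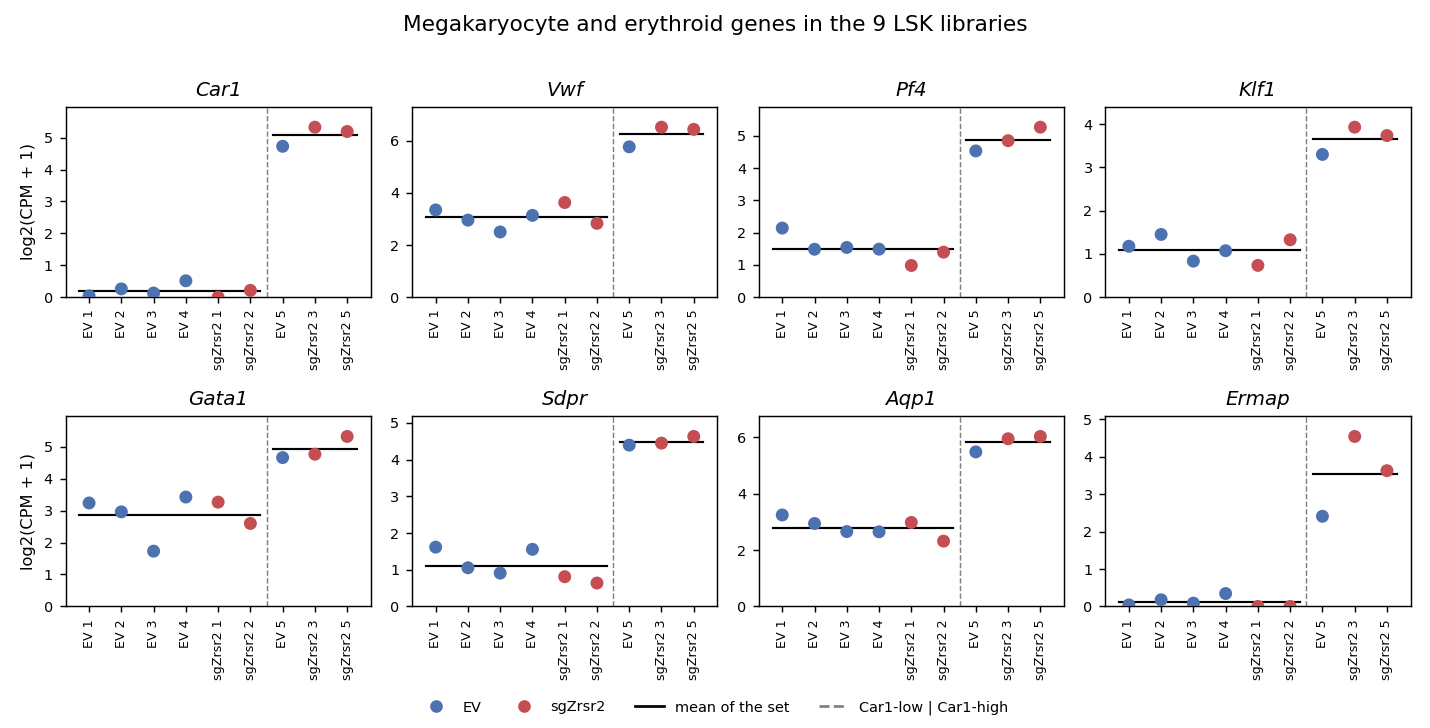
Level of 8 megakaryocyte and erythroid genes in each of the 9 libraries, as log2(CPM + 1) on the y axis, with EV in blue, sgZrsr2 in red, a black line at the mean of each set and a dashed line between Car1-low (left) and Car1-high (right). In each panel the 3 Car1-high libraries lie above all 6 Car1-low ones, and EV mouse 5 is the lowest of the 3.

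Platelet and megakaryocyte genes were higher in the high set over most of their list. Of 30 listed genes 27 passed the filter on low counts, 12 were higher past the threshold and 0 lower, and in 20 the sets did not overlap, always with the high set above. Over all genes tested, 1.11% were higher past the threshold, and in 8.3% the high set lay above the low set. The median log2 difference of the list was 1.46. Between 4 (without EV mouse 5) and 18 (without EV mouse 3) of the 27 passed when 1 library was left out, with 5 without sgZrsr2 mouse 1 or 2 and 7 without mouse 3 or 5. Sdpr, also named Cavin2, a coat protein of caveolae, was the farthest apart at 20.002, 20.8 and 23.7 CPM against 0.556 to 2.06 CPM (median 0.976), a difference of 4.47 (SE 0.37). Its 3 high libraries lay close together, and the highest low library was EV mouse 1 at 2.06 CPM. The receptor complex that binds Vwf on platelets was represented by Gp1bb at 6.04, 7.17 and 10.2 CPM against 0.477 to 1.62 CPM (median 1.13), and by Gp5 at 18, 22.6 and 35.6 CPM against 1.1 to 4.87 CPM (median 4.18). A smaller difference was seen for Gp9 of the same complex, at 5.31, 5.96 and 6.75 CPM against 2.13 to 3.95 CPM (median 2.57). Gp1ba of the complex was at 7.97, 11.5 and 12.1 CPM against 4.17 to 6.07 CPM (median 5.54), a difference of 0.85 (SE 0.19). Neither Gp9 nor Gp1ba passed the threshold. All these genes of the complex were apart between the sets, and sgZrsr2 mouse 5 was the highest library for each. Treml1, a receptor stored in platelet granules, was at 3.42, 4.29 and 7.17 CPM against 0.125 to 0.86 CPM (median 0.605), and Mmrn1, the granule protein multimerin, at 32.2, 51.6 and 24.2 CPM against 3.9 to 12.1 CPM (median 5.61). F2rl2, a thrombin-activated receptor, was at 5.66, 8.07 and 12 CPM against 0.842 to 2.03 CPM (median 1.13). Here too the sets were apart. Genes of the same list that are abundant in LSK cells differed less: Itga2b (CD41) was at 199, 221 and 320.3 CPM against 108 to 267 CPM (median 177) and overlapped, as did Nfe2 at 203, 257 and 229 CPM against 173 to 223 CPM (median 199). Selp, which encodes P-selectin of platelet granules, went the other way, at 79, 123 and 125 CPM against 103 to 271 CPM (median 193), also with overlap. Ppbp and Tubb1, transcripts abundant in platelets, reached at most 1.73 and 0.837 CPM, with log2 differences of 1.52 (SE 0.84) and 2.16 (SE 0.89), and neither passed the threshold.

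Erythroid genes showed the larger median, 2.33 on the log2 scale, with 28 of 30 listed genes tested (Rhce was not matched to the table), 16 higher past the threshold, 0 lower and 20 apart. Leaving out 1 library left 6 (without sgZrsr2 mouse 1 or 2) to 19 (without EV mouse 1) past the threshold, with 7 without EV mouse 5, 9 and 8 without sgZrsr2 mice 3 and 5. Car1, which formed the sets, is on this list. Without it 15 of 27 were higher past the threshold, 19 were apart and the median was 2.31. Over all genes tested 1.11% were higher past the threshold and 8.3% were apart and higher. Ermap, a protein of the red cell membrane, was at 4.32, 22.4 and 11.4 CPM against 0 to 0.271 CPM (median 0.0456). Slc4a1, the anion exchanger band 3, was at 1.17, 9.23 and 0.558 CPM against 0 to 0.0626 CPM (median 0), and Cldn13, a claudin of red cell precursors, at 0.496, 5.69 and 0.921 CPM with 0 in all 6 low libraries. In all 3 genes sgZrsr2 mouse 3 was the highest of the high set. Aqp1, the water channel of red cells, was more even, at 43.5, 60.5 and 64 CPM against 3.97 to 8.45 CPM (median 5.98), a difference of 3.19 (SE 0.25). Epor, the erythropoietin receptor, was even as well, at 7.77, 8.87 and 8.79 CPM against 1.31 to 2.55 CPM (median 1.4), a difference of 2.25 (SE 0.29). Ank1, which ties band 3 to the membrane skeleton, was at 4.35, 15.6 and 6.25 CPM against 0.636 to 1.4 CPM (median 1.09), and Spna1, alpha spectrin, at 2.74, 5.55 and 2.85 CPM against 0 to 0.636 CPM (median 0.294). Tfrc, the transferrin receptor, did not follow, at 218, 269 and 180.3 CPM against 211 to 488 CPM (median 274), with overlap.

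Adult globins were low in all libraries. Hba-a1 was at 4.58, 19.3 and 2.87 CPM against 0.0451 to 0.469 CPM (median 0.208), and Hba-a2, its near-identical neighbour, at 4.93, 15.2 and 4.8 CPM against 0 to 0.715 CPM (median 0.195). Hbb-b1 was at 6.07, 17.4 and 3.91 CPM against 0.428 to 2.03 CPM (median 0.761), whereas Hbb-b2 was lower in the high set, at 8.09, 15.3 and 5.61 CPM against 13.4 to 46 CPM (median 18.8), with the sets overlapping. Reads of these copies can be divided between them by the counting, so the opposite signs of the 2 beta-globin genes are uncertain. Of 11 tested genes of haem synthesis, 0 passed the threshold in either direction, 1 (Urod) was apart, and the median was 0.26. That 1 gene is 9.09% of the 11, near the 8.3% apart and higher over all genes tested. Among the carbonic anhydrases, 9 of 16 were tested, and apart from Car1, which formed the sets, 0 passed the threshold. Car2, near Car1 on chromosome 3, was at 226, 303 and 211 CPM against 95.2 to 196 CPM (median 153), apart but with a difference of only 0.60 (SE 0.21). Car3 (-0.43) and Car13 (0.37) of the same cluster overlapped between the sets.

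The promoters of 2 of these red cell genes are printed because each holds 1 GATA motif, taken here as AGATAA or TGATAA on either strand, in capitals. In both it reads TTATCA, the same motif on the opposite strand. The windows are the bases before the RefSeq start (GRCm38.p6), written 5′ to 3′ on the strand of the gene and ended where the deposited table places the gene; Klf1 is at chr8:84901732-84901927, plus strand, and Ermap at chr4:119190012-119190245, minus strand.
Klf1: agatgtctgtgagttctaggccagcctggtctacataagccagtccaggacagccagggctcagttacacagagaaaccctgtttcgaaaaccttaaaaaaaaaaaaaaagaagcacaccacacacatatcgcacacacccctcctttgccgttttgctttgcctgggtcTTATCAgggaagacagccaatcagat
Ermap: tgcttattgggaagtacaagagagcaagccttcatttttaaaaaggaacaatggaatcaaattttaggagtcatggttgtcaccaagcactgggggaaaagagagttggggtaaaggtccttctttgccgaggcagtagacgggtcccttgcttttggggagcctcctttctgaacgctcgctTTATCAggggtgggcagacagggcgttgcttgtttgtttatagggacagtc
The first base of the motif lies 80 bases before the RefSeq start in Klf1 and 67 bases before it in Ermap. Pf4, Sdpr and Aqp1 had no match in their windows of 250 bases. Car1 and Vwf were not among the windows used. Of 32851 RefSeq windows 16.6% held a match. Among protein-coding genes tested with a window it was 9.05% of 10333, among those higher past the threshold 20 of 115 (17.4%), and among those lower 12 of 92 (13%). A match describes the letters and says nothing about binding.

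Among 23 transcription factors of the branch and of LSK cells, 5 were higher past the threshold, 0 lower, and 6 were apart, among them Gata1, Klf1, Zfpm1, Tal1 and Gata2. Those apart and higher were 26.1% of the 23, against 8.3% of all genes tested. Of all genes tested 1.11% were higher past the threshold. Zfpm1, the cofactor FOG1, was at 218, 295 and 291 CPM against 85.4 to 126 CPM (median 116), a difference of 1.15 (SE 0.13). Tal1, a partner of Gata1 in erythroid and stem cells, was at 128, 158 and 136 CPM against 75 to 99.5 CPM (median 88.9), a smaller difference of 0.59 (SE 0.10). Every library transcribed both genes. Gfi1b, a repressor needed for both lineages, did not keep to the Car1 sets. It was at 31.1, 45.9 and 36.9 CPM in the high set, but also at 33.7 and 22.4 CPM in the low EV mice 1 and 2, against 2.94 to 8.5 CPM in the other 4 low libraries. Cbfa2t3, a corepressor of the Tal1 complex, had the same order, with 184 and 171 CPM in EV mice 1 and 2 beside 177, 278 and 198 CPM in the high set and 60.4 to 101 CPM elsewhere. EV mice 1 and 2 were therefore like the high set in these 2 genes and like the low set in Car1, Vwf, Pf4 and Klf1. Sfpi1 (PU.1, -0.24) and Cebpa (-0.39), factors of the myeloid branch, and Mecom, a stem cell factor, overlapped between the sets.

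Receptors gave 2 of 20 higher past the threshold, Epor among them, and 0 lower. Kit (0.56), Csf2ra (0.45) and Tek (0.96) were also apart. In all, 25% of the 20 receptors were apart and higher, against 8.3% of all genes tested. Past the threshold were 1.11% of all genes tested in each direction. Flt3, the receptor of lymphoid-primed progenitors, was at 245, 362 and 227 CPM against 332 to 501 CPM (median 408), with overlap. Of 18 JAK-STAT feedback and target genes 0 were higher and 1, Id1, lower past the threshold, and the list median was -0.01, or 0.04 with upper-quartile scaling and 0.03 without EV mouse 3. Stat5a, a signal carrier downstream of Jak2, lay above the low set in the 3 high libraries, at 168, 179 and 187 CPM against 118 to 145 CPM (median 134). Jak2 itself was at 72.3, 93.1 and 84.9 CPM against 55.5 to 87.9 CPM (median 82), a difference of 0.00 (SE 0.14).

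Genes tied to platelet-biased stem cells gave 7 of 20 higher past the threshold, 0 lower and 11 apart, with a median of 0.65. The 11 are 55% of the list, against 8.3% apart and higher over all genes tested. Past the threshold and higher were 1.11% of all genes tested. In 6 of the 20 the difference was below 0, down to -1.28. This list shares Vwf, Sdpr, Mmrn1, Itgb3, Cd9 and Selp with the megakaryocyte list, so it is not a separate count. Members outside that overlap were Ehd3, an endocytic protein, at 11.7, 15 and 23.6 CPM against 0.876 to 3.01 CPM (median 1.999), and Aldh1a1, an aldehyde dehydrogenase, at 40.5, 43.3 and 48.4 CPM against 11.6 to 26 CPM (median 15.6). Slamf1 (CD150), used to sort stem cells, was at 9.11, 9.06 and 9.12 CPM against 4.13 to 7.31 CPM (median 4.82). The sets were apart for all 3. General stem cell genes gave 0 of 25 past the threshold, 5 apart and a median of 0.60. The 5 are 20% of the list, against 8.3% of all genes tested. Procr was at 19.4, 23.5 and 12.8 CPM against 10.3 to 19.2 CPM (median 11.8), and Hlf at 174, 256 and 118 CPM against 97.2 to 202 CPM (median 126). Both overlapped, and for both sgZrsr2 mouse 3 was the highest of the 9 libraries. The stem cell genes that were apart were Slamf1, Ctnnal1, Clca1, Tie1 and Tek, of which Clca1, a secreted protein, differed most, at 9.05, 21.4 and 24.3 CPM against 2.13 to 8.27 CPM (median 4.87). Genes of DNA replication (20 tested, median -0.12, or 0.02 without sgZrsr2 mouse 3) and of mitosis (20 tested, median 0.11) had 0 past the threshold in either direction. Prim1, a primase subunit (-0.31), lay below all low libraries in the high set, with sgZrsr2 mouse 3 lowest at 52.5 CPM. Pcna, the replication clamp, was at 483, 313 and 408 CPM against 415 to 633 CPM (median 449).

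Genes of other branches gave few differences past the threshold, which 1.11% of all genes tested passed in each direction. The granulocyte and monocyte progenitor list had 0 of 22 past the threshold and a median of -0.18, with Cebpe, a granulocyte factor, above (1.44) and Ctsc, a protease that activates granule enzymes, below (-0.34) in all 3 high libraries. Lymphoid priming genes gave 0 of 24 higher and 1 lower (Tespa1), with a median of 0.15. Dntt, an enzyme of early lymphoid cells, was at 197, 199 and 95.4 CPM against 50.7 to 279.9 CPM (median 96.7), and its 2 highest libraries were the low EV mice 1 and 2 at 279.9 and 258.9 CPM. Mast cell, basophil and eosinophil genes gave 0 of 16 past the threshold and 2 apart. The 2 are 12.5% of the list, near the 8.3% apart and higher over all genes tested. Prss34, a basophil protease, was at 51, 31.5 and 58.2 CPM against 0 to 27.2 CPM (median 5.97), and it had no count in sgZrsr2 mice 1 and 2. Epx, the peroxidase of eosinophils, was at 0.409, 7.39 and 0.391 CPM against 0 to 0.172 CPM (median 0.0156). Mcpt8 was at 26.4, 17.5 and 32.5 CPM against 12.6 to 24 CPM (median 16.2), and Cpa3 at 22.6, 24.7 and 44.7 CPM against 13.4 to 30.5 CPM (median 22.3), both with overlap. Interferon response genes gave 1 of 20 higher past the threshold, Igtp, with 19 of 20 log2 differences above 0 and a median of 0.56. Over all genes tested 8026 of 15342 differences were above 0. Apart and higher were 3 of the 20 (15%), against 8.3% of all genes tested. The mean log2(CPM + 1) of the list overlapped between the sets. It was 3.89 in the low EV mouse 1, above the high EV mouse 5 (3.75) and sgZrsr2 mouse 5 (3.76). Igtp, an interferon-induced GTPase, was at 48.6, 46.9 and 63 CPM against 19.5 to 33.1 CPM (median 27.4). Zbp1, a nucleic acid sensor, was at 5.9, 7.78 and 6.92 CPM against 1.37 to 5.62 CPM (median 2.49). For Igtp sgZrsr2 mouse 5 was the highest library, and for Zbp1 it was sgZrsr2 mouse 3.

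**Figure D2:**
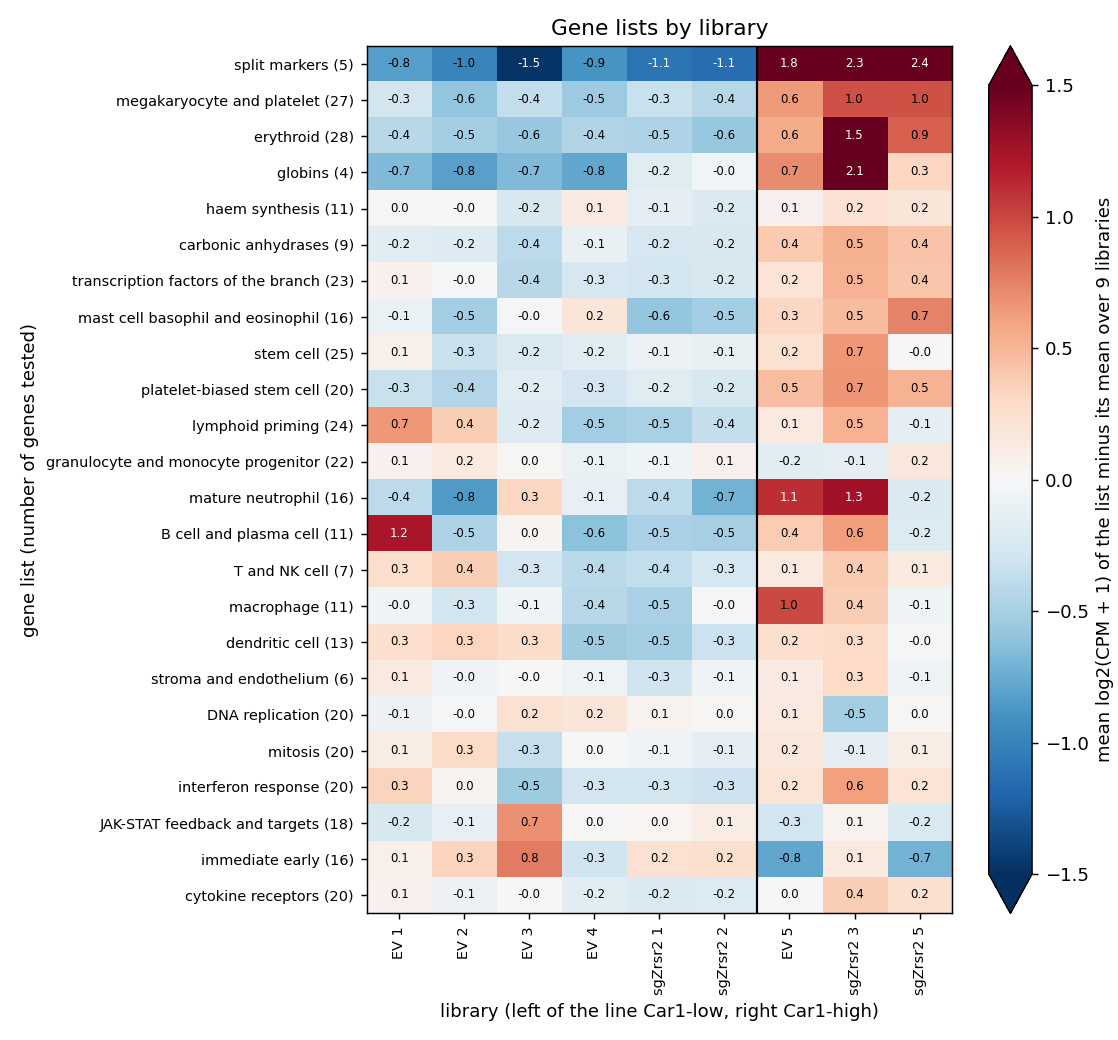
Mean log2(CPM + 1) of each gene list in each library minus the mean of that list over the 9 libraries, printed in each cell and shown as colour (red higher, blue lower, colour limits at 1.5 either way), with Car1-low libraries left of the line and Car1-high right. The megakaryocyte and erythroid lists are higher in all 3 Car1-high libraries, and the mature neutrophil list in EV mouse 5 and sgZrsr2 mouse 3 but not in sgZrsr2 mouse 5.

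Markers of mature cells were followed because a sort can carry a few of them. The mature neutrophil list had 16 of 17 genes tested, 0 past the threshold, 0 apart and a median of 1.94. Its summed level was 289, 332 and 115 CPM in the high set and 87.6 to 191 CPM in the low set. S100a9 was at 49.7, 56.7 and 6.53 CPM against 2.22 to 13.7 CPM (median 7.32), and Ltf, a protein of neutrophil granules, at 29.99, 29.9 and 4.24 CPM against 0.0219 to 6.2 CPM (median 0.244). EV mouse 5 and sgZrsr2 mouse 3 stood above the low set in both, and sgZrsr2 mouse 5 lay within it. In sgZrsr2 mouse 5 the megakaryocyte list was as high as in sgZrsr2 mouse 3 (list means 4.50 and 4.51 on the log2(CPM + 1) scale), with these neutrophil genes at low-set levels. The macrophage list had 11 of 12 tested, 0 past the threshold and a median of 1.38, with sums of 137 to 154 CPM in the high set and 66.3 to 150 CPM in the low set. C1qa was at 3.45, 1.45 and 0.446 CPM against 0 to 0.953 CPM (median 0.27), highest in EV mouse 5, and Slc40a1, the iron exporter of macrophages, was at 5.05, 5.23 and 2.34 CPM against 0.376 to 1.63 CPM (median 0.644), without overlap. The summed B cell and plasma cell list was at 147 to 457 CPM against 40.3 to 711 CPM, and the T and NK cell list at 89.9 to 112 CPM against 59.7 to 83.7 CPM. Of single markers, Cd79a of B cells reached 9.86 CPM, Cdh5 of endothelium 4.07 CPM, and Cxcl12 and Col1a1 of stroma 1.47 and 0.363 CPM, and Cd3e of T cells was 0 in 8 of 9 libraries and 0.0876 CPM in EV mouse 5. The sums of stroma and endothelium genes were 126 to 167 against 114 to 159 CPM, and those of dendritic cell genes 849 to 990.3 against 776 to 1236 CPM, with Siglech at 16.6, 27.7 and 7.37 CPM against 3.13 to 24.4 CPM (median 20.2). Kdr, an endothelial receptor, was at 0.993, 3.13 and 1.67 CPM against 0.199 to 0.745 CPM (median 0.413), apart at these low levels. The part of such cells in the differences between the sets was not tested.

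Immunoglobulin genes took 8 of the first 10 places by size of difference, beside Car1 and Ermap, among genes past the threshold with at least 5 CPM in the mean of the higher set whose sets did not overlap. Several of these were at or near 0 in the low set and passed the filter on low counts only through the high libraries, so their number supports nothing. Ighg1, the constant gene of the antibody class IgG1, was at 42.3, 90.1 and 46.8 CPM against 0 to 0.0573 CPM (median 0), a difference of 11.42 (SE 0.47). Its 6 low libraries held 3 counts together and its 3 high libraries 6844. Igkv15-103 had 0 counts in the 6 low libraries and was at least 439-fold higher, taking 3 counts over the low set together as the floor. Other constant genes did not follow the sets. Ighg2b was at 122, 95.3 and 16.5 CPM against 0.0877 to 479.5 CPM (median 121), with the highest value in the low EV mouse 3, and Ighm at 4598, 2728 and 547 CPM against 152 to 1444 CPM (median 551). Igj, the chain that joins secreted antibodies, was at 385, 374 and 102 CPM against 10.2 to 662 CPM (median 197). Genes annotated as immunoglobulin genes in the table together took 1712 to 7872 CPM in the high set and 186 to 5550 CPM in the low set, Igj not among them, so their total overlapped while the number of variable genes above 1 CPM did not (82, 102 and 57 against 2 to 35). These genes form large families with shared sequence, and reads may be divided between copies, so single members are uncertain.

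Genes with the symbols of cytoplasmic ribosomal proteins, a group picked after its values were seen, lay mostly below the low set. Of 84 protein-coding ones tested 24 were lower past the threshold and 0 higher, in 74 the 3 high libraries were below all 6 low ones, and the median log2 difference was -0.37. Over all genes tested 1.11% were lower past the threshold, and in 9.25% the high libraries were below the low ones. Together the 84 took 55445 to 60644 CPM in the high set and 68649 to 80959 CPM in the low set. Rps20, of the small subunit, was at 701, 639 and 676 CPM against 902 to 1058 CPM (median 987), a difference of -0.54 (SE 0.09). Rpl39, of the large subunit, was at 299, 283 and 276 CPM against 394 to 466 CPM (median 425), a difference of -0.54 (SE 0.09). The number past the threshold fell to 0 with any 1 of the 4 sgZrsr2 libraries left out or with sgZrsr2 mice 1 and 2 averaged, to 1 without EV mouse 5 and to 7 without EV mouse 4. It was 12 with no expression filter, 45 with no covariate, 54 with mouse number as a replicate block and 63 with DESeq2, and 37 without EV mouse 3. These genes have many near-identical copies in the genome, between which reads may be divided. They moved with the share of the 50 most abundant genes given above, which may itself include some of them.

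Cxcl2, a chemokine that NF-kB induces, had the largest such difference among genes past the threshold with at least 5 CPM in the mean of the low set, at 1.2, 0.8 and 0.893 CPM against 12 to 45.7 CPM (median 35.8), a difference of -5.08 (SE 0.50). Tnf, a cytokine induced the same way, was at 7.68, 7.29 and 9.01 CPM against 19.6 to 66.5 CPM (median 29.2). Nfkbia, the inhibitor that NF-kB induces against itself, was at 78.8, 84.3 and 84.9 CPM against 200.4 to 257 CPM (median 219), a difference of -1.44 (SE 0.12), and Tnfaip3, another such inhibitor, at 93.1, 137 and 87.6 CPM against 149 to 228 CPM (median 195). All 4 lay below the low set in the 3 high libraries. No list of NF-kB genes was drawn up, and these 4 were grouped with their values in view. Tnfaip2, also named for its induction by Tnf, went the other way past the threshold. Its means were 80.2 CPM in the high set and 38.2 CPM in the low set, a difference of 1.23 (SE 0.21). Immediate early genes, which cells switch on within minutes of a stimulus or of handling, gave 3 of 16 lower past the threshold (Fosb, Egr2 and Ier3), 0 higher, 5 apart and a median of -0.71. The 5 are 31.25% of the list, against 9.25% apart and lower over all genes tested. Past the threshold and lower were 1.11% of all genes tested. Fosb was at 607, 1137 and 337 CPM against 1454 to 3232 CPM (median 2669), and Egr2 at 2.95, 4.1 and 3.96 CPM against 11.8 to 21.2 CPM (median 13.6). Atf3, a stress factor, was at 19.4, 38.1 and 14.2 CPM against 58 to 266 CPM (median 88.8), and Junb at 411, 611 and 428 CPM against 666 to 1241 CPM (median 744), both apart. Fos overlapped, at 1145, 1972 and 733 CPM against 1583 to 3019 CPM (median 2947), and Jun did too, at 1178, 2494 and 1163 CPM against 1215 to 3078 CPM (median 2073). In Fosb, Fos and Jun sgZrsr2 mouse 3 was the highest of the high set, and for Jun it exceeded 5 of the 6 low libraries. Dusp6, a feedback inhibitor of the MAP kinase pathway, was at 63.1, 89.1 and 64.8 CPM against 138 to 312 CPM (median 194), and Spry4, another such inhibitor, at 1.66, 1.16 and 1.31 CPM against 3.47 to 12.7 CPM (median 6.72). Id1, an inhibitor of differentiation factors, was at 6.83, 5.6 and 6.03 CPM against 10.5 to 37.8 CPM (median 21.5), and Rbm3, an RNA-binding protein induced by cold, at 462, 324 and 400.3 CPM against 740.4 to 1202 CPM (median 912). Rasd1, a small GTPase, was at 2.19, 1.58 and 1.9 CPM against 6.5 to 19.9 CPM (median 11.7), and Apol8, an apolipoprotein L, at 0.526, 0.654 and 0.446 CPM against 2.81 to 22.7 CPM (median 6.21). All 6 of these genes were apart. EV mouse 3 was the highest library for Tnf, Egr2, Spry4, Dusp6 and Id1.

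**Figure D3:**
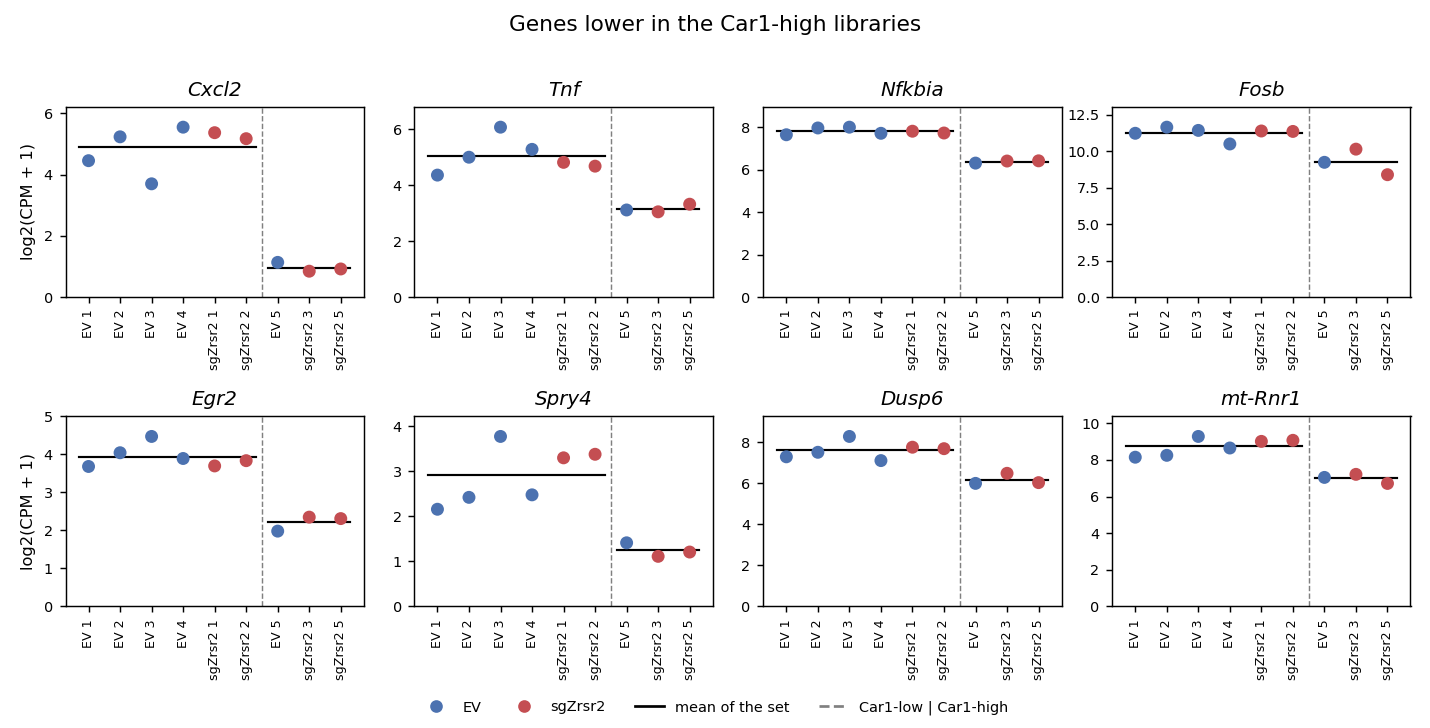
Level of 8 genes that were lower in the Car1-high libraries, as log2(CPM + 1) on the y axis, with EV in blue, sgZrsr2 in red, a black line at the mean of each set and a dashed line between Car1-low (left) and Car1-high (right). In each panel the 3 Car1-high libraries lie below all 6 Car1-low ones.

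The promoters of Cxcl2 and Nfkbia are shown because both hold the NF-kB motif, searched as GGG, any 2 bases, then TTTCC on either strand and set in capitals. Both windows run over 250 bases before the RefSeq start (GRCm38.p6), 5′ to 3′ on the strand of the gene, at chr5:90903649-90903898, plus strand, for Cxcl2 and chr12:55492648-55492897, minus strand, for Nfkbia.
Cxcl2: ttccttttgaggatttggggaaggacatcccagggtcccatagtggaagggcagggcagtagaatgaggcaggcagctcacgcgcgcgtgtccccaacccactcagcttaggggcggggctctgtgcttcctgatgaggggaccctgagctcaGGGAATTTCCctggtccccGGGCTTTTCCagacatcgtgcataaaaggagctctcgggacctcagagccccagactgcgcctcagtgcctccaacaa
Nfkbia: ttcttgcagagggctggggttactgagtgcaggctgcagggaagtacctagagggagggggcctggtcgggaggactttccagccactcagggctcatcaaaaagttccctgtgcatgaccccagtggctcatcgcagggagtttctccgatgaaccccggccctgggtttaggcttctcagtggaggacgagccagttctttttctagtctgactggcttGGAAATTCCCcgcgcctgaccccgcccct
Cxcl2 has 2 matches, beginning 97 and 78 bases before the start, and Nfkbia has 1, on the opposite strand, beginning 29 bases before it. Fosb had no match in its window. The motif was in 1.41% of all 32851 windows and in 1.39% of 10333 for protein-coding genes tested. It was in 4 of 92 (4.35%) for those lower past the threshold and in 0 of 115 for those higher. These matches describe letters in few promoters and say nothing about binding. Whether NF-kB has a part in the differences was not tested.

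Mitochondrial and small non-coding RNAs were lower in the high set too, in libraries that the labels describe as made by poly(A) selection from 5 ng of total RNA. Both mitochondrial ribosomal RNAs passed the threshold downwards: mt-Rnr1 was at 131, 148 and 104 CPM against 283 to 623 CPM (median 459.6), and mt-Rnr2 at 409.8, 343 and 344 CPM against 807 to 1818 CPM (median 1234). The 13 mitochondrial protein-coding genes summed to 21380 to 22610 CPM against 28030 to 39800 CPM. The chromosome 9 copy of 7SK, a nuclear RNA that holds back transcript elongation, was at 4, 6.76 and 3.46 CPM against 20.5 to 38.6 CPM (median 25.1), a difference of -2.63 (SE 0.24). Small nuclear, small nucleolar and miscellaneous RNAs summed to 18.9 to 27.6 CPM against 49.2 to 71.5 CPM. None of these classes overlapped between the sets. Clustered histone genes, also mostly without a tail, summed to 802 to 968 CPM against 961 to 1455 CPM and overlapped. The part of RNA quality or library preparation in these values was not tested.

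The sets were also compared within each genotype, where the 2 differences share no library. In EV this sets mouse 5 against mice 1 to 4, and in sgZrsr2 mice 3 and 5 against mice 1 and 2. On the log2(CPM + 1) scale Vwf differed by 2.78 in EV and 3.25 in sgZrsr2, Pf4 by 2.87 and 3.87, and Klf1 by 2.17 and 2.80. Cxcl2 differed by -3.60 and -4.39, and Nfkbia by -1.52 and -1.36. Across 15341 genes without Car1, the 2 differences correlated with a Pearson r of 0.592 and a Spearman rho of 0.593, as a description only, since genes are not independent and the grouping came from Car1. Genes were then chosen in EV alone, as those at least 4-fold higher in mouse 5 than in the highest of mice 1 to 4 after adding 1 CPM, Car1 left out. There were 19, of which 14 (73.7%) had both high above both low sgZrsr2 libraries, where 34.8% of all genes tested did. The 8 protein-coding ones among them were Ltf, Sdpr, Pf4, Vwf, Aqp1, Hba-a2, Ces2g and Ermap, and 8 of 8 went the same way, where 35.9% of all protein-coding genes tested did. Of the 11 immunoglobulin genes 6 did, against 47% of all those tested. Some chosen genes, such as Ermap (0 to 0.271 CPM in the low set) and Ighg1 (0 to 0.0573 CPM), were near 0 there. They could pass the filter on low counts only through the high libraries, which favoured their going the same way. Percentages over all genes tested also count genes expressed in the low set, so the shares are not strictly comparable. Sdpr, Pf4, Vwf, Aqp1 and Ces2g had at least 0.556 CPM in every low library. In the other direction 2 genes were chosen, Cxcl2 and 7SK, and both were lower in both high sgZrsr2 libraries (30.9% of all genes tested). At an 8-fold limit 7 genes were chosen and 3 (42.9%) went the same way.

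**Figure D4:**
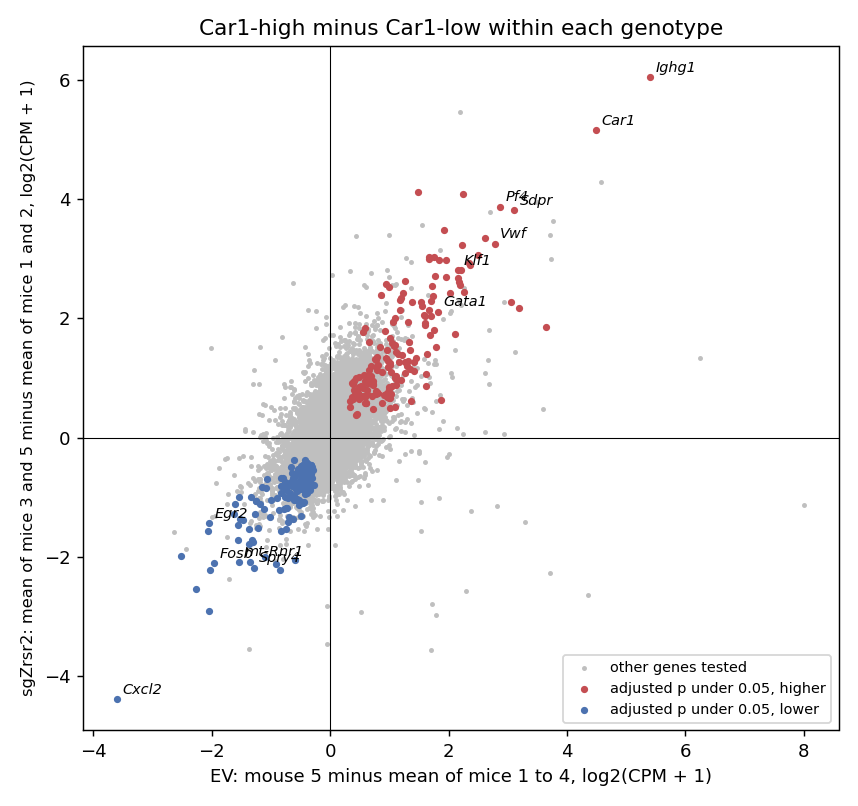
Each point is 1 of 15342 genes, with the EV difference (mouse 5 minus the mean of mice 1 to 4) on the x axis and the sgZrsr2 difference (mean of mice 3 and 5 minus mean of mice 1 and 2) on the y axis, both in log2(CPM + 1). Genes past the threshold between the sets are red (higher) or blue (lower) and lie in the upper right and lower left, with Ighg1, Car1, Pf4, Sdpr and Vwf at one end and Cxcl2 at the other.

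The 3 high libraries were not alike in what they carried most of. Of 27 tested megakaryocyte genes sgZrsr2 mouse 5 was the highest of the 3 in 15, sgZrsr2 mouse 3 in 12 and EV mouse 5 in 0. Of 28 erythroid genes sgZrsr2 mouse 3 was highest in 22, sgZrsr2 mouse 5 in 5 and EV mouse 5 in 1. Stem cell genes were highest in sgZrsr2 mouse 3 in 21 of 25, lymphoid priming genes in 20 of 24 and immediate early genes in 16 of 16. Mast cell, basophil and eosinophil genes were highest in sgZrsr2 mouse 5 in 13 of 16, and granulocyte and monocyte progenitor genes in 17 of 22. EV mouse 5 led in macrophage genes (9 of 11) and in DNA replication genes (18 of 20). Of the 170 genes higher in the set, EV mouse 5 was the lowest of the 3 in 99, sgZrsr2 mouse 5 in 42 and sgZrsr2 mouse 3 in 29. Genes of a list vary together, so these counts describe the libraries and carry no test.

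The genotype label, which the grouping did not use, was tested with the Car1 set held in the model. In edgeR's quasi-likelihood test 0 of 15342 genes (0%) passed an adjusted p of 0.05 between sgZrsr2 and EV, with 1324 at an unadjusted p under 0.05, 708 of them higher in sgZrsr2. With DESeq2 there were 66 such genes (32 up in sgZrsr2, 34 down), and the 6 low libraries alone gave 0 in edgeR. The smallest edgeR adjusted p was 0.0947. With the Car1 set in the model Zrsr2 differed by -0.42 (SE 0.12, edgeR adjusted p 0.560), lower in 4 of 4 sgZrsr2 libraries than in any EV library. Genes with small p included Gm20388, Usp54, AC160990.2 and Hsph1 (edgeR adjusted p 0.5005 for Gm20388 and 0.560 for the other 3). Of these, Usp54, a ubiquitin protease, was at 35.5 to 46.7 CPM in EV and 42.1 to 78.0 CPM in sgZrsr2, and Hsph1, a heat shock protein, at 58.8 to 92.3 and 36.4 to 73.7 CPM. Both overlapped between the genotypes, and both were most distinct in the low sgZrsr2 mice 1 and 2.

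Whether the set difference itself differed between genotypes was tested as an interaction. In edgeR 0 of 15342 genes (0%) passed, with 597 at an unadjusted p under 0.05 and a smallest adjusted p of 0.975, and DESeq2 called 13. This test rests on 1 high EV library, mouse 5. For Vwf, Pf4 and Klf1 the interaction was 0.42 (SE 0.51), 1.33 (SE 0.59) and 0.75 (SE 0.70) on the log2 scale, each with an edgeR adjusted p of 0.975. A p above the threshold does not show that the set difference was equal in the genotypes.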

How the data were processed

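The authors deposited 1 table of RSEM expected counts per gene (RSEM 1.2.30, reads trimmed with cutadapt 1.11, genome GRCm38, per the submitters' processing notes); the annotation and RSEM's settings are not given in the sources used here. All 9 columns were used and 0 left out. RSEM divides reads that fit several genes between them, and fractional values made up 9.78% to 13.3% of each library, so expected counts were rounded. The filterByExpr rule, at its defaults of a count of 10 and a total of 15, kept 15342 genes holding 99.95% of counts, with TMM factors of 0.890 to 1.08. They were fitted with edgeR 4.0.16 (quasi-likelihood, R 4.3.3), with genotype and Car1 set as terms, and p-values adjusted by Benjamini-Hochberg across the 15342 genes. SE is the log2 difference over the square root of F. DESeq2 1.42.0 and limma 3.58.1 were alternatives. The procedure was tested on simulated data.

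The members and lists were chosen with earlier results of these data known. Named genes were the 5 markers, the 3 genes farthest apart in each list, defining markers of other cells, the 10 genes farthest apart in each direction and the 5 with the smallest genotype p; any other gene was picked with its values in view. The libraries come from mice numbered in the labels; where nothing says more, p-values measure the spread between these samples. A low-set-only comparison, the erythroid list without Car1 and the ribosomal group were added after seeing the data. Some genes that this rule names are not reported here.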

Additional observations from a re-analysis of the deposited data

Results flagged for a closer look

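Among 32 measures in EV, sgZrsr2 and the low set, 14 of 96 checks found 1 library set off from its group. The gap had to be large against the whole range. Independent checks would give about 1 in 20 by chance, here 4.8. These checks were not independent, since lists share genes and the low set reuses EV and sgZrsr2 libraries. Of the 14, 9 were EV mouse 5 above the other 4 EV mice, and the grouping on Car1 had already singled out that library. Car1 itself is among the 9, so nothing is read from the number 14 beside 4.8. In EV mouse 5 list means, on the log2(CPM + 1) scale, were 4.18 for megakaryocyte genes (others 2.96 to 3.27) and 3.30 for erythroid genes (others 2.17 to 2.32). They were 2.76 for globins, 4.44 for platelet-biased stem cell genes and 2.84 for macrophage genes. Car1 was at 25.5 CPM, Vwf at 53.4, Pf4 at 22.1 and Klf1 at 8.85 CPM.

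In sgZrsr2, mouse 3 stood apart with the highest stem cell list mean, 4.81 (others 4.04 to 4.15), and the lowest DNA replication list mean, 7.01 (others 7.54 to 7.59). Mouse 5 had the lowest immediate early list mean, 7.55 (others 8.41 to 8.51). EV mouse 4 had the lowest dendritic cell list mean of EV, 4.21 (others 4.99 to 5.06). Within the low set EV mouse 1 had the highest B cell and plasma cell list mean, 3.55 (others 1.71 to 2.37).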

How the results depend on the processing

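The count of genes past the threshold between the sets moved by over 1.5 times with the covariate, the tool and the libraries used. Against 170 higher and 170 lower, it was 326 and 341 with no covariate, 938 and 1013 with DESeq2, and 40 and 9 with sgZrsr2 mice 1 and 2 averaged into 1 library. Leaving out 1 library gave 39 to 372 higher and 9 to 396 lower: 297 and 317 without EV mouse 1, 372 and 396 without EV mouse 3, 116 and 94 without EV mouse 4, 51 and 30 without EV mouse 5, and in sgZrsr2 39 and 10 without mouse 1, 40 and 9 without mouse 2, 54 and 17 without mouse 3, and 55 and 10 without mouse 5. Fewer samples enter these fits; the cause was otherwise not tested. Mice 1 and 2 were averaged in case they were not independent, which was not tested; their log2(CPM + 1) values correlated at 0.989, and those of EV mice 1 and 2 at 0.993. Of 49 genes called with mice 1 and 2 averaged, 48 were among the 340. No named gene changed sign over 1820 values for 96 genes, and 287 values lost the threshold. These 96 were taken from genes whose sets did not overlap, so their stable sign follows from the choice and supports nothing. Of 456 list medians 52 moved by more than the spread between libraries. In 3 the sign changed: JAK-STAT with upper-quartile factors (0.04) and without EV mouse 3 (0.03), and DNA replication without sgZrsr2 mouse 3 (0.02).

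For the genotype, 5 genes passed without a filter, 66 with DESeq2, 1 with mice 1 and 2 averaged, and 0 to 1 without 1 library (1 without sgZrsr2 mouse 1, 2, 3 or 5). For the interaction, 13 passed with DESeq2, 1 with mice 1 and 2 averaged, and 0 to 1 without 1 library (1 without sgZrsr2 mouse 1); without EV mouse 5 it could not be fitted. The difference in total counts, 0.362M, lay between -1.97M and 2.50M without 1 library, with -1.97M without sgZrsr2 mouse 1, -1.44M without mouse 2 and -1.20M without mouse 3. The mitochondrial difference ranged from -1.16 to -0.925 percentage points and that of the 50 most abundant genes from -1.96 to -1.72. Genes chosen in EV at an 8-fold cut went the same way in 42.9% of 7, and none were chosen downwards.

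With mouse number as a replicate block, 1498 genes were higher and 1694 lower. Whether the numbers pair the samples is not known. Deviations from the genotype means correlated between same-numbered mice at -0.199, -0.0498, -0.394 and 0.388. Those deviations also hold the set difference: EV mouse 5 and sgZrsr2 mouse 3, both Car1-high, reached 0.539. They therefore cannot decide whether a number marks a pair. Depth limits genes near 0 in the low set, whose fitted differences depend on the prior count.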
